A study of Mus musculus with 8 samples.

Results

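The integrated stress response and amino acid supply genes were described in MH-S cells, an established line of mouse alveolar macrophages, as 33 genes chosen by symbol. Of these, 32 were among the 17518 genes of the deposited expression table and all 32 were among the 11911 genes that passed a filter on low counts, while Vldlr was not analysed here. The 33 comprised 3 genes of eIF2 and its kinases, 5 transcription factor genes, 9 genes of feedback and effector proteins, 10 enzyme genes and 6 amino acid transporter genes. RNA sequencing had been done on 8 libraries in 3 groups. The LPS+RCMNs group (n = 3) received bacterial lipopolysaccharide (LPS) at 100 ng/mL together with RCMNs, nanoparticles described in the series' title as responsive to reactive oxygen species, at 1 μg/mL. The LPS group (n = 2) received LPS, with no separate dose in the labels, and the control group (n = 3) received PBS, a saline buffer. Exposure times were not given in the sources used here, no group with RCMNs alone was analysed here, and all libraries came from the same cell line. Whether the replicates were separate cultures is not stated in the labels. A p-value here therefore reflects only the spread among libraries within groups, shared over all 3 groups, and that spread may be technical.

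The integrated stress response is a pathway in which kinases that sense different stresses phosphorylate the translation initiation factor eIF2 on its alpha subunit. General translation then slows while the transcription factor ATF4 is translated more, and ATF4 with C/EBP partners switches on genes that make, import and charge amino acids. The same pathway induces its own brake, a phosphatase subunit that returns eIF2 to its active form, and in macrophages it is engaged by amino acid shortage, oxidative stress and strong inflammatory stimuli.

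The libraries held 18.6 to 21.2 M counts and 13844 to 15330 genes with a count, and 3 counts corresponded to 0.130 to 0.182 counts per M counts (CPM). Of 12 macrophage markers, summed levels were 6426 to 8049 CPM in LPS+RCMNs, 5241 to 6422 CPM in LPS and 4940 to 5789 CPM in control libraries, led by Lyz2, while the alveolar macrophage markers Siglecf, Pparg and Marco stayed at or below 0.186, 0.506 and 1.32 CPM. As a check of the LPS label, Il1b, an inflammatory cytokine gene, stood at 6.67, 6.38 and 7.40 CPM in LPS+RCMNs, 354.5 and 349.0 CPM in LPS and 0.0434, 0.233 and 0.232 CPM in control libraries. All 4 globin genes were also high in the LPS libraries, with sums of 29.9, 0.608 and 33.5 CPM in LPS+RCMNs, 4328 and 5590 CPM in LPS and 0.477, 20.4 and 20.1 CPM in control libraries. The 5 neutrophil markers summed to 0.147 to 0.608 CPM in LPS+RCMNs, 4.54 to 4.97 CPM in LPS and 0.0434 to 0.0466 CPM in control libraries, with Ly6g, a defining marker, at 0 in both LPS libraries. Across all tested genes the log2 fold change ranked with gene length at a Spearman correlation of -0.58 (LPS versus control), 0.59 (LPS+RCMNs versus LPS) and -0.09 (LPS+RCMNs versus control), so short genes read higher in the LPS libraries. The genes described here had a median length of 2073 bases, against 2823 bases over all tested genes. Within their groups, control replicate 1 and replicate 2 of LPS+RCMNs differed most from the others, with a chi-square per degree of freedom of 44.5 to 47.4 and 35.5 to 42.7 against their own group, compared with 12.5 between both LPS libraries, 2.82 between the other LPS+RCMNs libraries and 1.93 between the other controls. These libraries also had the lowest globin sums. The part of the globins, of gene length and of the libraries that stood apart in the results below was not tested beyond the values given beside them. In bulk RNA, fewer cells of a type and less RNA per cell cannot be told apart.

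Promoter sequence was available for 28 of the 32 genes from RefSeq (GRCm38.p6), covering 250 bases before to 50 bases after the annotated start, and Eif4ebp1, Cth, Slc7a5 and Slc1a5 had no entry. The C/EBP-ATF response element, the composite site through which ATF4 and C/EBP factors act, was searched as TGATGNAA on either strand (TTNCATCA when read from the other strand). It was found within the 250 bases before a start in 5 of the 28 genes (17.9%). This compares with 256 of the 9629 tested genes with promoter sequence (2.66%) and 1056 of all 27025 genes with promoter sequence (3.91%). These shares are per gene, and some genes, such as Atf5, had several annotated starts. A match describes the letters only and is not evidence of binding. The 60 bases of gene strand around each match are shown because these genes spread over 4 roles, with the matching bases in capitals. They lie at chr6:7693210-7693269 on the minus strand for Asns, chr2:119351023-119351082 on the plus strand for Chac1, chr7:126625547-126625606 on the minus strand for Nupr1, chr11:120643818-120643877 on the minus strand for Pycr1 and chr3:50443646-50443705 on the minus strand for Slc7a11.
Asns: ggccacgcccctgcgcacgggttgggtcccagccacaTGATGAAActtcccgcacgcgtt
Chac1: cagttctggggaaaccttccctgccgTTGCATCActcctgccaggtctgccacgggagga
Nupr1: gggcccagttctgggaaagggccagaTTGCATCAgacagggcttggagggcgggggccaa
Pycr1: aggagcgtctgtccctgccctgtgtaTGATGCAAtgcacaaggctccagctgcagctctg
Slc7a11: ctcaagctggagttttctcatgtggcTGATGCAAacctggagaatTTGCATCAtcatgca
The match began 23 bases before the annotated start in Asns, 193 in Chac1, 110 in Nupr1 and 103 in Pycr1. Slc7a11 held a pair of matches in opposite orientation, 66 and 47 bases before a start that lies inside the annotated span of its gene.

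The genes spanned a wide range of levels per length. Phgdh, the first enzyme of serine synthesis, averaged 185.6 ± 19.9 FPKM in LPS+RCMNs (SD, n = 3), 240.6 ± 35.02 FPKM in LPS (SD, n = 2) and 278.5 ± 87.6 FPKM in control libraries (SD, n = 3). It ranked first in LPS and control, while in LPS+RCMNs Psat1, the next enzyme of that pathway, stood above it at 188.3 ± 21.97 FPKM, a difference within the spread of both. Atf4 ranked 3, 2 and 3 of 32 in LPS+RCMNs, LPS and control at 150.9 ± 20.02, 239.6 ± 17.2 and 208.5 ± 129.7 FPKM. The kinase genes were low throughout, with Eif2ak3 (PERK, the kinase of the endoplasmic reticulum) at 4.91 ± 0.15, 2.93 ± 0.55 and 5.03 ± 0.42 FPKM and Eif2ak4 (GCN2, the kinase that senses uncharged transfer RNA) at 8.58 ± 0.20, 3.05 ± 0.30 and 11.6 ± 0.72 FPKM in the same order of groups. The lowest control level belonged to Slc7a11, at 1.71 ± 0.96 FPKM and rank 32, and it reached rank 25 in both other groups. Ppp1r15a stood at rank 23 in LPS+RCMNs, 11 in LPS and 24 in control. Among the genes the comparisons turn on, GRCm38.p6 places Eif2ak4 (gene ID 27103) on chromosome 2 at 118388583 to 118475234, Eif2s1 (gene ID 13665) on chromosome 12 at 78862072 to 78887010, Atf4 (gene ID 11911) on chromosome 15 at 80255184 to 80257545, Ppp1r15a (gene ID 17872) on chromosome 7 at 45522917 to 45526268 and Trib3 (gene ID 228775) on chromosome 2 at 152337425 to 152344060.

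Control replicate 1 carried higher levels of most of these genes than the other control libraries. Deviations were taken as the log2 level, log2(CPM + 0.5), of the library less the mean of the other 2 replicates. They were above 0 for 30 of 32 genes in control replicate 1, with a median of 0.78, against a median of 0.0004 over all 11911 genes. A deviation of at least 1 was reached by 13 of the 32 genes and by 132 of all 11911, and none of the 32 was at or below -1, against 237 of all. Of the 10 genes that deviated upwards most among all tested genes, 5 were members, and 13 of the top 100 were. The ranking describes 1 library against 2, and it has no test.

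**Figure D1:**
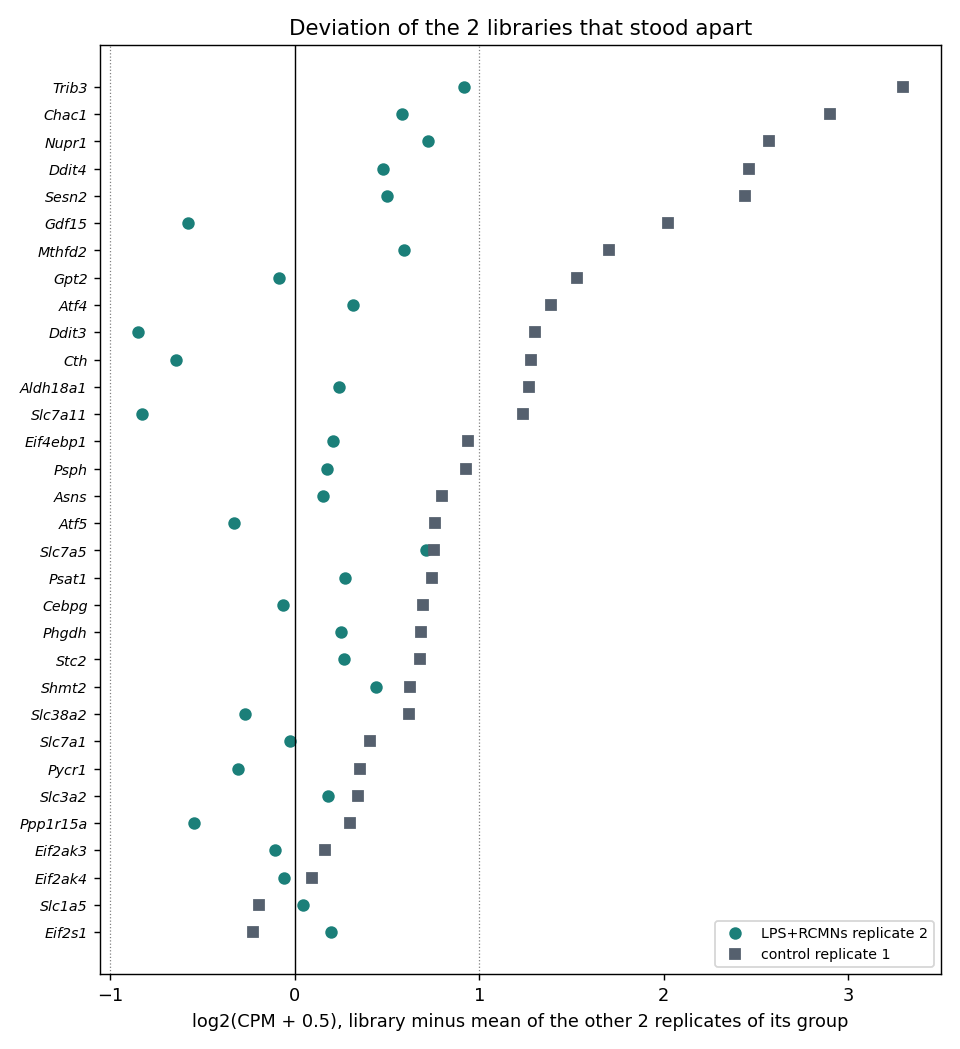
Deviation of each gene in LPS+RCMNs replicate 2 (circles) and in control replicate 1 (squares) from the mean of the other 2 replicates of its group, as log2(CPM + 0.5), ordered by control replicate 1 and with dotted lines at -1 and 1. In control replicate 1, 30 of 32 genes lie above 0 and 13 reach 1, whereas in LPS+RCMNs replicate 2 none of the 32 lies beyond 1 in either direction.

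The effector genes deviated most, at a median of 2.23 over 8 genes. Trib3, a pseudokinase that binds and restrains ATF4, ranked first of all 11911 genes, and its levels were 10.99, 19.3 and 9.13 CPM in LPS+RCMNs, 16.6 and 13.2 CPM in LPS and 73.5, 7.59 and 6.55 CPM in control libraries. Control replicate 1 was thus 10.4 times the mean of the other control libraries and the highest of all 8. Chac1, which degrades glutathione and whose promoter holds the element shown above, had 2.75, 3.70 and 1.92 CPM in LPS+RCMNs, 3.27 and 2.67 CPM in LPS and 20.1, 2.61 and 1.95 CPM in control libraries. All libraries other than control replicate 1 lay below 4 CPM, and that library was 8.81 times the mean of the other controls. Ddit4 and Sesn2, which restrain the growth kinase mTORC1, stood 5.96 and 5.74 times above the other controls, and Gdf15, a secreted stress cytokine, 5.79 times. Ppp1r15a (GADD34), the phosphatase subunit that reverses eIF2 phosphorylation, deviated least among them, at 20.6 CPM in control replicate 1 and 16.8 and 16.6 CPM in the other controls, a deviation of 0.30 on the log2 scale.

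Among the transcription factors the median deviation was 1.30 over 5 genes. Atf4, the central factor of the pathway, had 202.5, 251.2 and 201.0 CPM in LPS+RCMNs, 446.1 and 476.9 CPM in LPS and 484.2, 192.6 and 177.2 CPM in control libraries. Control replicate 1 thereby lay at the level of the LPS libraries. Nupr1, a small stress-induced transcription regulator with the element in its promoter, stood at 15.8 CPM in control replicate 1 against 1.44 and 3.39 CPM in the other controls. Ddit3 (CHOP), the factor linked to stress-induced cell death, stood at 22.5 CPM against 8.99 and 8.69 CPM. The enzymes had a median deviation of 0.86 over 10 genes, all above 0, led by Mthfd2, a mitochondrial folate enzyme, at 287.3 CPM in control replicate 1 against 87.2 and 88.6 CPM. Aldh18a1, which starts proline synthesis from glutamate, stood at 237.5 CPM against 97.3 and 99.2 CPM, a deviation of 1.27. The transporters had a median of 0.51 over 6 genes. The upstream genes deviated least, with Eif2ak3 at 0.17, Eif2ak4 at 0.10 and Eif2s1, the alpha subunit of eIF2, at -0.23. Control replicate 1 was the highest of the 8 libraries for 21 of the 32 genes, against 2292 of 11911 tested genes (19.2%).

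LPS+RCMNs replicate 2, the other library that stood apart, was read in the same way. Its deviations had a median of 0.18, against 0.0001 over all tested genes. They ran between -0.85 for Ddit3 and 0.92 for Trib3, so none reached 1 in either direction, and lay above 0 for 19 of 32 genes. The sign was the same in both libraries for 17 of 32 genes (53.1%), against 64.7% of all tested genes. Of the 8 effectors, 6 lay above 0 in LPS+RCMNs replicate 2, with a median of 0.37. By upward deviation in that library, Trib3 ranked 55, Nupr1 173 and Chac1 380 of all 11911 genes. Gdf15 and Ddit3 ranked 10881 and 11496.

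Genes of the wider pathway were read in control replicate 1 by the same measure. Of 14 other tested targets of ATF4, 10 lay above 0 and 3 reached 1, namely Slc6a9, a glycine transporter (2.67), Klhl24 (1.61) and Pck2, a mitochondrial enzyme of gluconeogenesis (1.48). Of 20 cytosolic tRNA synthetases, which charge transfer RNA with amino acids, 19 lay above 0 with a median of 0.36, and Cars and Aars reached 1.56 and 1.40. The 13 other genes of the eIF2 machinery had a median of 0.02, the 7 genes of the mitochondrial stress relay 0.10 and the 11 tested genes of amino acid sensing by mTORC1 0.35. Dnajc3, of the eIF2 machinery, was the only gene of these lists at or below -1, at -1.33.

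**Figure D2:**
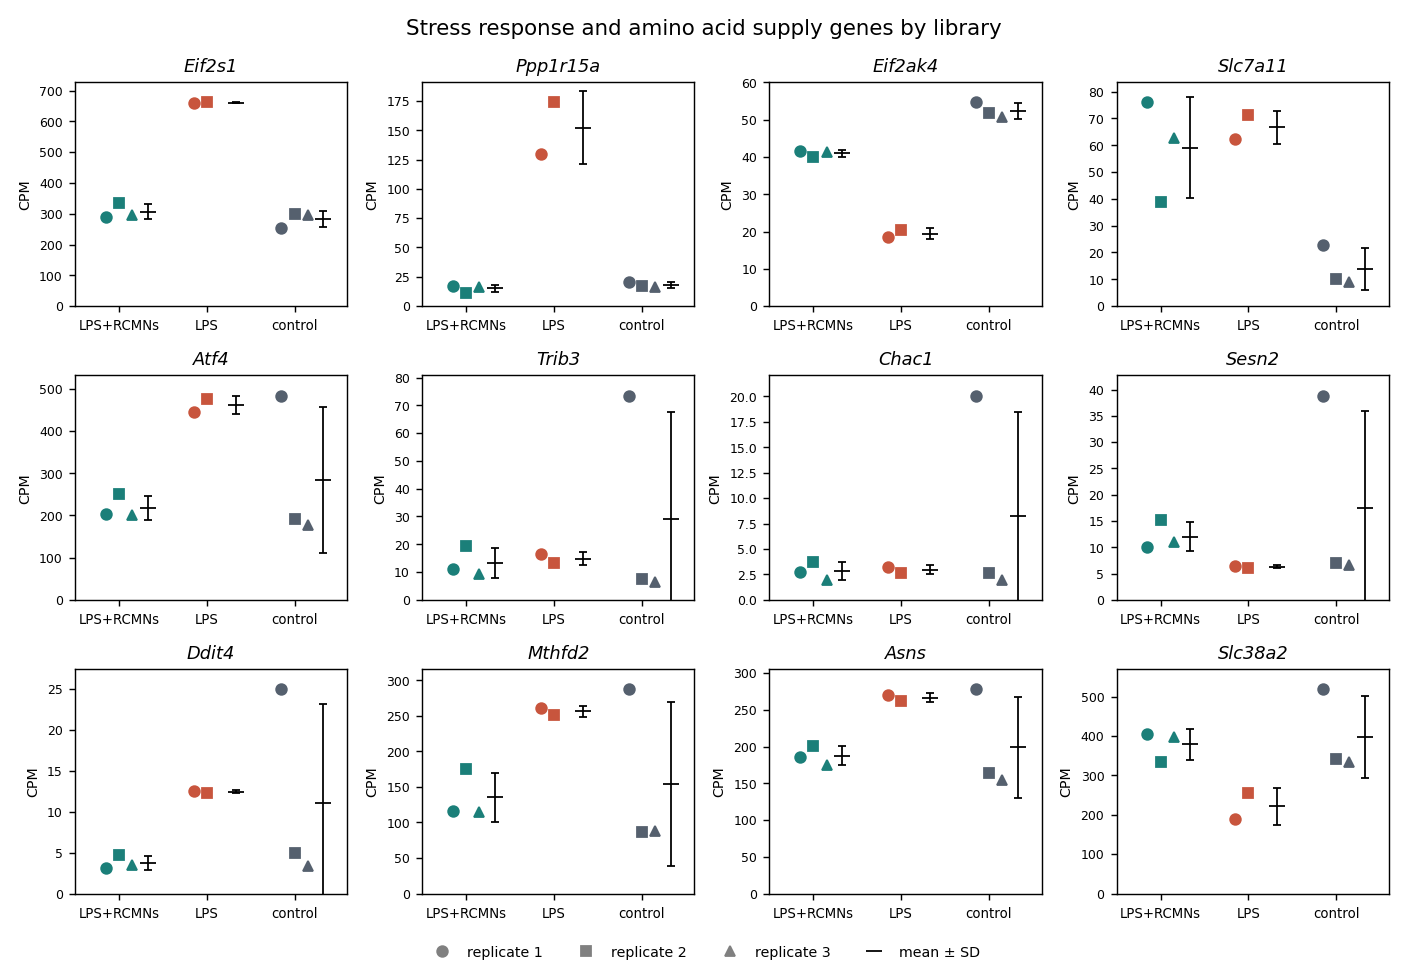
Level of 12 genes in each library in CPM on linear axes from 0, with 1 point per library and, beside the points, the mean ± SD (cut at 0) of LPS+RCMNs (n = 3), LPS (n = 2) and control (n = 3). Ppp1r15a and Eif2s1 are highest in both LPS libraries, Slc7a11 is lowest in the control libraries, and Trib3 and Chac1 are high in control replicate 1 alone.

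LPS versus control asks how the pathway differed after the inflammatory stimulus. LPS libraries held 8.44 times more Ppp1r15a, 4.80 times more Slc7a11 and 2.34 times more Eif2s1 than controls, and 2.69 times less Eif2ak4. With the trend on gene length and level removed, the log2 difference of -1.43 for Eif2ak4 was -0.72 and that of 2.26 for Slc7a11 was 3.42, both called. In all, 5 of the 32 genes rose and 4 fell by edgeR's quasi-likelihood test at a Benjamini-Hochberg adjusted p below 0.05, and 23 did not pass. This is 28.1% of the members, below the 63.4% of all tested genes that were called, of which 31.4% rose and 32.1% fell. The median log2 fold change was -0.01 over the members and -0.04 over all tested genes. Without control replicate 1, 18 genes rose and 4 fell with a median of 0.61, where 34.2% of all genes rose and 31.3% fell. When the dependence on gene length and level was also removed, an alternative chosen after the data were seen, 12 rose and 3 fell, where 22.3% of all genes rose and 23.5% fell, and 9 of the 18 were among the 12.

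Upstream, Eif2s1 had 659 and 663 CPM in LPS against 254, 298 and 295 CPM in control libraries, without overlap. It rose by 1.23 ± 0.11 on the log2 scale (SE, edgeR's quasi-likelihood test, adjusted p = 1.25e-05). Eif2ak4 (GCN2) had 18.5 and 20.4 CPM in LPS against 54.8, 51.7 and 50.7 CPM in control libraries. The groups did not overlap and the difference was -1.43 ± 0.10 (adjusted p = 4.72e-06), reduced to -0.69 when control replicate 1 was left out and the length and level dependence removed. Both calls held in all 16 alternatives. Eif2ak3 (PERK) had 14.0 and 17.9 CPM in LPS against 21.7, 18.8 and 19.7 CPM in control libraries and did not pass (log2 fold change -0.33, adjusted p = 0.0673), but was called lower without LPS replicate 2 (-0.46). Its direction turned with length and level removed, to 0.30 and not called with all libraries, and to 0.36 and called higher with control replicate 1 also left out (adjusted p = 0.0454).

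None of the 5 transcription factor genes passed edgeR's test for LPS versus control. At an unadjusted p below 0.05 there was 1, Nupr1, while DESeq2 called none and limma on log2(FPKM + 1) called 1, Cebpg, as lower. Atf4 in both LPS libraries lay between control replicate 1 and the other controls, with a log2 fold change of 0.70 ± 0.37 (adjusted p = 0.126). Atf4 was at -0.20 and not called with length and level removed. Without control replicate 1 it rose by 1.37 ± 0.13 (adjusted p = 3.34e-05), and by 0.45 ± 0.11 (adjusted p = 0.0093) with length and level also removed. Nupr1 had 20.2 and 24.5 CPM in LPS against 15.8, 1.44 and 3.39 CPM in control libraries, and its difference of 1.69 ± 0.72 did not pass (adjusted p = 0.0654). Without control replicate 1 it was 3.26 ± 0.39 and passed (adjusted p = 0.000142), and with length and level also removed it was 1.88 ± 0.38 and passed (adjusted p = 0.00495). Cebpg, a dimer partner of ATF4, had 62.1 and 61.3 CPM in LPS against 98.4, 60.8 and 60.5 CPM in control libraries, with a difference of -0.25 that did not pass. It turned to 0.60 and passed when control replicate 1 was left out with length and level removed (adjusted p = 0.000594). On FPKM values limma called Cebpg lower with either pseudocount. Atf5, a related factor, ranged over 19.6 to 22.5 CPM in LPS and 12.3 to 21.6 CPM in control libraries and did not pass, but was 0.80 and called without control replicate 1 (adjusted p = 0.00207). With length and level also removed Atf5 was at 0.36 and not called (adjusted p = 0.0987). Ddit3 had 10.1 and 11.8 CPM in LPS against 22.5, 8.99 and 8.69 CPM in control libraries and did not pass (-0.29, adjusted p = 0.575). It was called lower with the length trend removed (-1.22, adjusted p = 0.0487). Without both libraries that stood apart it was called higher (0.36, adjusted p = 0.0362).

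Of the feedback and effector genes, Ppp1r15a had 130.0 and 174.1 CPM in LPS against 20.6, 16.8 and 16.6 CPM in control libraries. Both LPS libraries lay far above every control library, and the log2 difference was 3.08 ± 0.19 (adjusted p = 2.68e-06), called in all 16 alternatives. Eif4ebp1, a translation repressor acting downstream of mTORC1, had 92.9 and 94.0 CPM in LPS against 87.0, 45.1 and 45.2 CPM in control libraries. Its rise of 0.66 ± 0.26 (adjusted p = 0.0468) was lost in 12 of 16 alternatives, among them those without LPS replicate 1 (0.70), LPS replicate 2 (0.71), control replicate 2 (0.54) or control replicate 3 (0.54), and it turned to -0.35 and -0.50, not called, when the length trend or length and level were removed. Stc2, a secreted glycoprotein, had 22.5 and 21.1 CPM in LPS against 49.3, 30.6 and 30.6 CPM in control libraries. It fell by 0.76 ± 0.22 (adjusted p = 0.0131) without overlap, was not called without LPS replicate 1 (-0.77) or LPS replicate 2 (-0.66), was -0.44 and called without control replicate 1, and was -1.14 and called with length and level removed. Trib3 and Gdf15 changed direction with control replicate 1: their differences of -0.98 and -0.19, neither passing, became 1.13 (adjusted p = 0.0172) and 1.25 (adjusted p = 0.0133) without it. Both calls were lost when length and level were also removed (0.93, adjusted p = 0.0552, and 0.76, adjusted p = 0.0791). Ddit4, at 12.6 and 12.3 CPM in LPS against 25.0, 4.98 and 3.39 CPM in control libraries, did not pass (0.16, adjusted p = 0.853). It turned to -0.15 without control replicate 2 and -0.23 without control replicate 3, neither called. Without control replicate 1 it was 1.62 and called (adjusted p = 0.000561). Chac1 passed neither with control replicate 1 nor without it. Sesn2, with 6.48 and 6.06 CPM in LPS against 38.8, 6.98 and 6.55 CPM in control libraries, was at -1.48 and not called, at -0.06 and not called without control replicate 1, and called lower without control replicate 2 (-1.82) or control replicate 3 (-1.83).

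None of the 10 enzyme genes passed edgeR's test for LPS versus control, with 2 at an unadjusted p below 0.05 (Gpt2 and Pycr1, both lower), none called by DESeq2 and 2 called lower by limma. Gpt2, an alanine aminotransferase, averaged 15.2 CPM in LPS and 30.4 CPM in control libraries, and was called lower without control replicate 2 (-1.20) or control replicate 3 (-1.23). Mthfd2 had 261.6 and 250.9 CPM in LPS against 287.3, 87.2 and 88.6 CPM in control libraries. Asns, the asparagine synthetase with the element in its promoter, had 270.8 and 262.5 CPM in LPS against 277.9, 164.0 and 154.9 CPM in control libraries. For Mthfd2 and Asns, both LPS libraries lay between control replicate 1 and the other controls. Aldh18a1, at 108.4 and 99.4 CPM in LPS against 237.5, 97.3 and 99.2 CPM in control libraries, was not called in any comparison or alternative. Without control replicate 1, 7 enzymes rose, namely Mthfd2 (1.60), Cth (1.24), Asns (0.80), Psat1 (0.70), Psph (0.62), Phgdh (0.61) and Shmt2 (0.55). Of these, Mthfd2 (1.05) and Cth (0.79), which makes cysteine, were still called with length and level also removed, while Asns was 0.14, Psat1 0.07, Psph -0.11, Phgdh -0.18 and Shmt2 0.02. In that setting Gpt2 was 0.46 and called higher, opposite in direction to its difference with all libraries.

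Of the 6 transporters, 2 rose and 2 fell in LPS. Slc7a11, the cystine importer that feeds glutathione synthesis, had 62.3 and 71.1 CPM in LPS against 22.8, 9.96 and 8.83 CPM in control libraries. It rose by 2.26 ± 0.39 (adjusted p = 0.000785) with no overlap, in all 16 alternatives, and by 3.98 ± 0.27 without control replicate 1 and with length and level removed. Slc3a2, the heavy chain that pairs with Slc7a11 and Slc7a5, had 363.7 and 369.6 CPM in LPS against 264.7, 207.2 and 209.4 CPM in control libraries and rose by 0.69 ± 0.12 (adjusted p = 0.000954). The call was lost on FPKM values with limma (0.12) and with length and level removed (0.32). Slc7a1, an importer of arginine and lysine, had 168.7 and 153.2 CPM in LPS against 368.6, 278.3 and 276.5 CPM in control libraries, a fall of 0.94 ± 0.14 (adjusted p = 0.000283). This long gene, of 7046 bases, was at -0.16 and not called once the length trend was removed. Slc38a2, a neutral amino acid importer, had 188.1 and 255.2 CPM in LPS against 518.4, 341.8 and 333.1 CPM in control libraries. Its fall of 0.84 ± 0.21 (adjusted p = 0.00695) was not called without LPS replicate 1 (-0.60) or with the length trend removed (-0.32). Slc7a5 and Slc1a5, importers of leucine and glutamine, did not pass. Slc7a5 was called lower on FPKM values alone. Slc1a5 was at -0.21 (adjusted p = 0.101) but called lower in 5 of 16 alternatives, among them with length and level removed (-0.52, adjusted p = 0.00444) and with control replicate 1 also left out (-0.56, adjusted p = 0.00395).

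**Figure D3:**
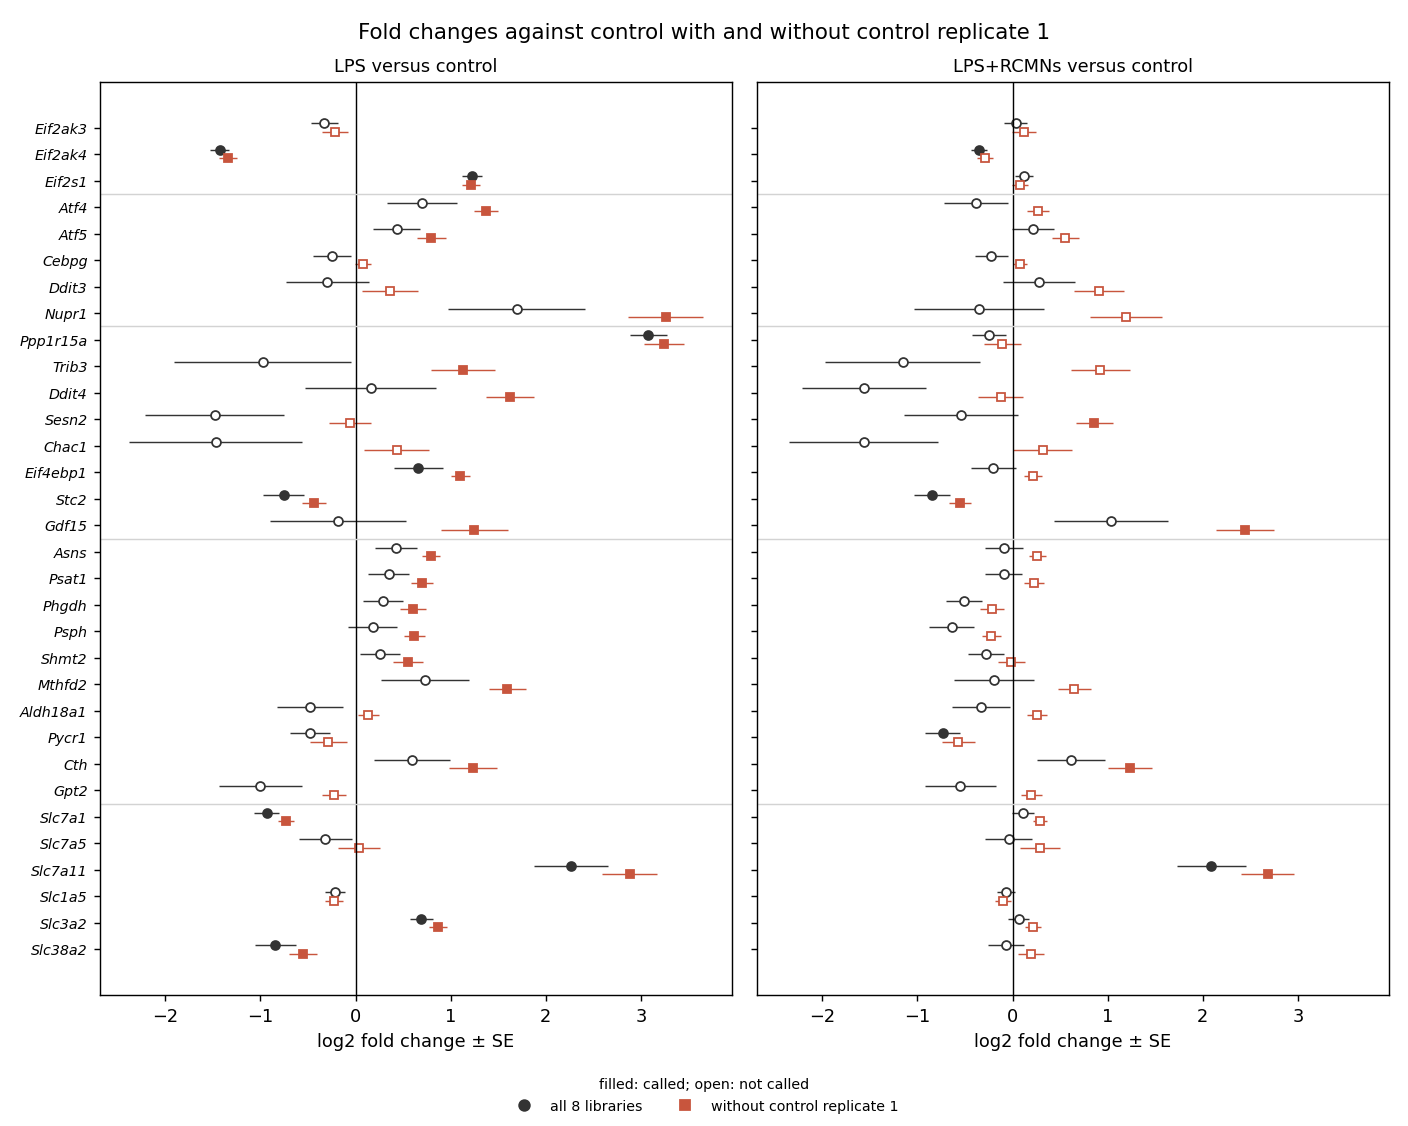
Log2 fold change ± SE from edgeR's quasi-likelihood test for LPS versus control (left) and LPS+RCMNs versus control (right), with all 8 libraries (circles) and without control replicate 1 (squares), filled where called, with grey lines between roles. In LPS versus control 18 genes are called higher without that library, against 5 with it, and Trib3 and Gdf15 lie below 0 with it and are called above 0 without it.

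LPS+RCMNs versus LPS asks how the pathway differed when the nanoparticles were added to LPS. Ppp1r15a fell to 0.0998 and Eif2s1 to 0.464 of their LPS levels, and Eif2ak4 and Slc7a1 rose 2.11 and 2.06 times. With the trend on gene length and level removed, the log2 rise of 1.08 for Eif2ak4 was 0.42 and called, and that of 1.05 for Slc7a1 was 0.26 and not called. With control replicate 1 left out as well, Slc7a1 was called higher. In all, 3 of the 32 genes rose and 9 fell by edgeR's quasi-likelihood test, and 20 did not pass. This is 37.5% of the members, below the 59.3% of all tested genes called, of which 29.8% rose and 29.5% fell. The median was -0.18 over the members and 0.03 over all tested genes. This comparison shares its LPS libraries with LPS versus control, so a gene that is high in LPS tends to differ in both, and the values of both are set side by side here without counting them as separate support. All 4 globins were called lower as well, with sums of 0.608 to 33.5 CPM in LPS+RCMNs against 4328 and 5590 CPM in LPS.

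Upstream, Eif2ak4 had 41.6, 39.9 and 41.4 CPM in LPS+RCMNs against 18.5 and 20.4 CPM in LPS. The rise of 1.08 ± 0.10 (adjusted p = 2.54e-05) left it below the control libraries. Eif2s1 had 289, 335 and 297 CPM in LPS+RCMNs against 659 and 663 CPM in LPS, a fall of 1.11 ± 0.11 (adjusted p = 2.72e-05) to levels that overlapped the control libraries. Neither gene overlapped between the groups, and both calls held in all 16 alternatives, although the rise of Eif2ak4 was 0.52 with the length trend removed and 0.42 with length and level removed. Eif2ak3 had 21.4, 19.5 and 20.6 CPM in LPS+RCMNs against 14.0 and 17.9 CPM in LPS and did not pass (0.36, adjusted p = 0.0521), but was called higher without LPS replicate 2 (0.52) and turned to -0.20, not called, with length and level removed.

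Of the transcription factors, Atf4 and Nupr1 fell and 3 did not pass. Atf4, with the levels given above, was lower in all LPS+RCMNs libraries than in both LPS libraries, by 1.08 ± 0.37 on the log2 scale (adjusted p = 0.0299). That call was lost in 10 of 16 alternatives, including those without LPS+RCMNs replicate 1 (-1.03), LPS+RCMNs replicate 3 (-1.05), LPS replicate 1 (-1.14) or LPS replicate 2 (-1.06). It was also lost, at a smaller size, with the length trend removed (-0.59) and with length and level removed (-0.30, adjusted p = 0.56), and was -0.30 and called (adjusted p = 0.0319) with control replicate 1 left out as well. Nupr1 had 4.27, 7.54 and 4.47 CPM in LPS+RCMNs against 20.2 and 24.5 CPM in LPS, without overlap, and fell by 2.04 ± 0.73 (adjusted p = 0.0365). It was lost in 11 of 16 alternatives, including those without the same libraries (-1.90, -1.95, -2.19 and -1.93). Nupr1 was at -0.69 with the length trend removed, -0.81 with length and level removed and -0.82 with control replicate 1 left out as well (adjusted p = 0.0601), none of them called. Cebpg, at 0.02 and not called, was at -0.52 and called lower in that last setting (adjusted p = 0.000685). Ddit3 had 20.9, 10.4 and 17.5 CPM in LPS+RCMNs against 10.1 and 11.8 CPM in LPS and did not pass (0.58, adjusted p = 0.282). With length and level removed it was 1.40 and called. The spread used for Atf4, Nupr1 and Ddit3 includes control replicate 1, since all 8 libraries share the fit, and without both libraries that stood apart Atf4 was at -1.22 ± 0.07, Nupr1 at -2.38 ± 0.24 and Ddit3 at 0.79 ± 0.13, all called.

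Of the effectors, Ppp1r15a had 17.4, 11.5 and 16.6 CPM in LPS+RCMNs against 130.0 and 174.1 CPM in LPS. Its fall of 3.32 ± 0.20 (adjusted p = 2.57e-06) brought it to the level of the control libraries and was called in all 16 alternatives. Eif4ebp1 had 50.6, 56.6 and 47.2 CPM in LPS+RCMNs against 92.9 and 94.0 CPM in LPS and fell by 0.86 ± 0.26 (adjusted p = 0.0165). The call was lost without LPS replicate 1 (-0.88) or LPS replicate 2 (-0.89), and the sign turned with the length trend removed (0.07) and with length and level removed (0.23), where it was also called as higher without control replicate 1 (0.22, adjusted p = 0.0435). Ddit4 had 3.09, 4.76 and 3.46 CPM in LPS+RCMNs against 12.6 and 12.3 CPM in LPS, and Sesn2 had 10.1, 15.1 and 10.96 CPM against 6.48 and 6.06 CPM. Neither gene overlapped between the groups, but with a spread that includes control replicate 1 neither passed (-1.72, adjusted p = 0.0621, and 0.94, adjusted p = 0.289). Without both libraries that stood apart Ddit4 fell by 1.95 ± 0.19 and Sesn2 rose by 0.72 ± 0.14. Gdf15, at 5.79, 3.44 and 5.00 CPM in LPS+RCMNs against 1.76 and 2.30 CPM in LPS, did not pass either (1.22, adjusted p = 0.165), and rose by 1.38 ± 0.22 in that same setting.

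Of the enzymes, 3 fell and 7 did not pass, and those that fell make serine or pass its carbon to folate. Phgdh had 301, 359 and 301 CPM in LPS+RCMNs against 621 and 490 CPM in LPS and fell by 0.79 ± 0.21 (adjusted p = 0.00922), a call lost without LPS replicate 1 (-0.63). Psph, which releases serine from its phosphate, fell by 0.82 ± 0.26 (adjusted p = 0.0229), a call lost without LPS+RCMNs replicate 3 (-0.77), LPS replicate 1 (-0.85) or LPS replicate 2 (-0.84). Shmt2, which passes carbon from serine to folate, fell by 0.54 ± 0.21 (adjusted p = 0.0498), and the call was lost without LPS+RCMNs replicate 1 (-0.45), LPS+RCMNs replicate 3 (-0.50), LPS replicate 1 (-0.46) or LPS replicate 2 (-0.66). Each of these 3 calls was also lost with the length trend removed and on FPKM values, and with length and level removed Phgdh, Psph and Shmt2 were at -0.15, -0.18 and -0.14. Psat1, Asns and Mthfd2 had lower levels in all LPS+RCMNs libraries than in both LPS libraries and did not pass (-0.44, -0.51 and -0.92). They were called lower without both libraries that stood apart, and were at 0.04, 0.02 and -0.49, not called, with length and level removed. With control replicate 1 left out as well, Mthfd2 was called lower and Psat1 and Asns were not called. Cth, with 26.7, 14.6 and 20.1 CPM in LPS+RCMNs against 20.3 and 19.9 CPM in LPS, overlapped between the groups.

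Of the transporters, Slc7a1 had 331.5, 328.3 and 337.4 CPM in LPS+RCMNs against 168.7 and 153.2 CPM in LPS and rose by 1.05 ± 0.14 (adjusted p = 0.000168). Slc38a2 had 406.1, 333.9 and 397.7 CPM in LPS+RCMNs against 188.1 and 255.2 CPM in LPS and rose by 0.77 ± 0.21 (adjusted p = 0.0114), a call lost without LPS replicate 1 (0.56). Both calls were lost with the length trend removed (0.32 and 0.28). With length and level removed and control replicate 1 left out, Slc7a1 was called higher and Slc38a2 was not called. Slc3a2 had 227.1, 258.5 and 228.1 CPM in LPS+RCMNs against 363.7 and 369.6 CPM in LPS and fell by 0.62 ± 0.12 (adjusted p = 0.00191), a call lost on FPKM values with limma and with length and level removed. Its partner Slc7a11 did not pass, with 76.2, 38.7 and 62.6 CPM in LPS+RCMNs overlapping 62.3 and 71.1 CPM in LPS. The difference was -0.17 ± 0.38 (adjusted p = 0.714), but -1.25 ± 0.37 and called with length and level removed (adjusted p = 0.0245). Slc1a5 did not pass (0.15), but was called higher with length and level removed (0.34, adjusted p = 0.0294). Slc7a11 is the longest of the members, at 9143 bases.

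**Figure D4:**
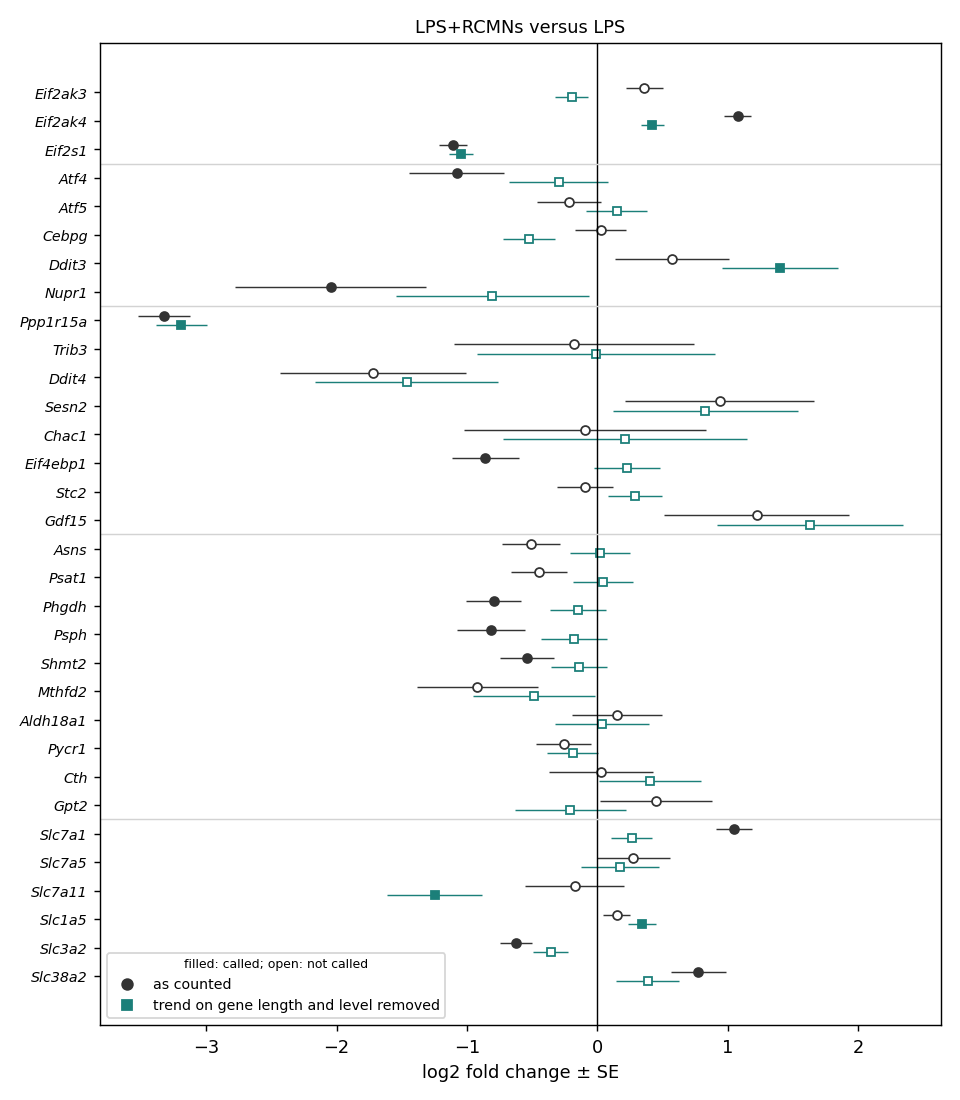
Log2 fold change ± SE from edgeR's quasi-likelihood test for LPS+RCMNs versus LPS, as counted (circles) and with the trend on gene length and level removed (squares), filled where called, with grey lines between roles. Ppp1r15a, Eif2s1 and Eif2ak4 are called either way, while Eif4ebp1 is called below 0 as counted and lies above 0 with the trend removed, and Slc7a11 is called only with the trend removed.

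LPS+RCMNs versus control asks which differences from unstimulated cells were present with LPS and RCMNs together. Slc7a11 rose 4.26 times, and Eif2ak4, Stc2 and Pycr1 fell 1.28, 1.80 and 1.66 times. The other 28 genes did not pass. The 4 called genes are 12.5% of the members, against 7.56% of all tested genes, of which 4.33% rose and 3.23% fell. The median was -0.21 over the members and -0.02 over all tested genes, and 0.22 over the members without control replicate 1. These control libraries are also those of LPS versus control.

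Slc7a11 had 76.2, 38.7 and 62.6 CPM in LPS+RCMNs against 22.8, 9.96 and 8.83 CPM in control libraries. The groups did not overlap, and the rise of 2.09 ± 0.36 (adjusted p = 0.0105) was called in all 17 alternatives and was 2.68 ± 0.28 without control replicate 1. Stc2 had 19.8, 23.1 and 18.5 CPM in LPS+RCMNs against 49.3, 30.6 and 30.6 CPM in control libraries and fell by 0.85 ± 0.19 (adjusted p = 0.0304). It was lost without LPS+RCMNs replicate 1 (-0.83) or LPS+RCMNs replicate 3 (-0.76), and was -0.55 and called without control replicate 1. Eif2ak4 had 41.6, 39.9 and 41.4 CPM in LPS+RCMNs against 54.8, 51.7 and 50.7 CPM in control libraries, and it fell by 0.35 ± 0.08 (adjusted p = 0.0385). Pycr1, an enzyme of proline synthesis with the element in its promoter, had 4.27, 3.34 and 4.23 CPM in LPS+RCMNs against 7.76, 5.54 and 6.41 CPM in control libraries and fell by 0.73 ± 0.19 (adjusted p = 0.046). The calls of Eif2ak4 and Pycr1 were lost whichever 1 of the 6 libraries was left out, at -0.36 to -0.29 for Eif2ak4 and -0.82 to -0.57 for Pycr1.

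Without control replicate 1, Cth (1.24, adjusted p = 0.0153), Gdf15 (2.44, adjusted p = 0.00303) and Sesn2 (0.86, adjusted p = 0.0331) also rose, and all 3 were still called with length and level removed. Gdf15 had 5.79, 3.44 and 5.00 CPM in LPS+RCMNs, against 5.12 CPM in control replicate 1 and 0.885 and 0.883 CPM in the other controls. With all libraries Sesn2 was at -0.54 and did not pass, so its sign turned. Ppp1r15a, Eif2s1 and Atf4 did not pass in this comparison with that library or without it (-0.11, 0.08 and 0.27 without it).

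The genes around these in the pathway were described from 5 further lists. Their called shares in LPS versus control are to be read against 63.4% of all tested genes, and were 76.9% for the eIF2 machinery, 57.1% for ATF4 targets, 57.1% for the mitochondrial relay and 81.8% for mTORC1 sensing, with 12 of 20 tRNA synthetases. In LPS+RCMNs versus LPS they were 76.9%, 42.9%, 57.1% and 90.9% in the same order of lists, again with 12 of 20 synthetases, against 59.3% of all tested genes. Of 13 other genes of the eIF2 machinery, 8 rose and 2 fell in LPS versus control, and 3 rose and 7 fell in LPS+RCMNs versus LPS. Eif2s2, the beta subunit of eIF2, had 366, 406 and 364 CPM in LPS+RCMNs and 933 and 966 CPM in LPS, with a difference of 1.32 ± 0.12 in LPS versus control and of -1.33 ± 0.12 in LPS+RCMNs versus LPS. Eif2b1 and Eif2b4, subunits of the exchange factor that recharges eIF2, rose by 1.29 and 1.32 in LPS versus control and fell by 0.96 and 0.95 in LPS+RCMNs versus LPS. Eif2s2, Eif2b1 and Eif2b4 were at 0.86, 0.79 and 0.86 in LPS versus control, and at -0.99, -0.52 and -0.51 in LPS+RCMNs versus LPS, once length and level were removed. Of 20 cytosolic tRNA synthetases, 11 rose and 1 fell in LPS versus control, and 12 fell and none rose in LPS+RCMNs versus LPS, where none was higher at an unadjusted p below 0.05 or by DESeq2 and 3 were by limma on FPKM. Kars rose by 0.97 ± 0.13 and fell by 0.92 ± 0.13 in these comparisons, Hars by 0.86 and 0.59, Farsa by 0.82 and 0.72, and Dars by 0.50 and 0.67. With length and level removed the differences were smaller, at 0.37 and -0.42 for Kars, 0.28 and -0.09 for Hars, 0.27 and -0.22 for Farsa and -0.04 and -0.23 for Dars.

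Of 14 other tested targets of ATF4, 3 rose and 5 fell in LPS versus control, and 5 rose and 1 fell in LPS+RCMNs versus LPS. Atf3, a stress-induced repressor, rose by 1.22 ± 0.23 in LPS versus control and fell by 1.39 ± 0.23 in LPS+RCMNs versus LPS, with 119.6, 64.3 and 118.8 CPM in LPS+RCMNs and 278.2 and 249.1 CPM in LPS. Aldh1l2, a mitochondrial folate enzyme, had 39.8, 18.2 and 35.5 CPM in LPS+RCMNs and 9.08 and 10.7 CPM in LPS, with a difference of -2.33 ± 0.36 in LPS versus control and of 1.66 ± 0.35 in LPS+RCMNs versus LPS. Removing length and level gave differences in LPS versus control and in LPS+RCMNs versus LPS of 0.68 and -0.90 for Atf3, and -1.44 and 0.85 for Aldh1l2. The long genes Slc38a1, an amino acid transporter, and Xpot, the exporter of transfer RNA, fell by 0.61 and 0.64 in LPS versus control, and were at 0.16 and -0.11 with length and level removed. Of 7 genes of the mitochondrial stress relay, 4 rose in LPS versus control and 3 did not pass, and 4 fell in LPS+RCMNs versus LPS and 3 did not pass. The chaperonin genes Hspe1 and Hspd1 rose by 2.06 and 0.97 in LPS versus control, and the protease gene Clpp by 1.37. With length and level removed they were at 0.46, 0.22 and 0.51.

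Of 11 tested genes of amino acid sensing by mTORC1, 4 rose and 5 fell in LPS versus control, and 6 rose and 4 fell in LPS+RCMNs versus LPS. Castor2, of the arginine sensor family, had 16.6, 16.7 and 16.1 CPM in LPS+RCMNs and 3.57 and 3.82 CPM in LPS, with a difference of -2.24 ± 0.17 in LPS versus control and of 2.16 ± 0.17 in LPS+RCMNs versus LPS. Deptor, an inhibitor of mTOR, had 16.8, 28.5 and 20.3 CPM in LPS+RCMNs and 4.91 and 4.30 CPM in LPS, with a difference of -3.27 ± 0.35 in LPS versus control and of 2.25 ± 0.34 in LPS+RCMNs versus LPS. Removing length and level gave -1.53 and 1.55 for Castor2, and -2.14 and 1.25 for Deptor. Deptor was also lower in LPS+RCMNs versus control, by 1.02 ± 0.26 on the log2 scale (adjusted p = 0.046). Its control libraries had 62.6, 34.6 and 35.9 CPM, a deviation of 0.82 for control replicate 1. Lamtor2, a scaffold of the lysosomal complex that holds mTORC1, rose by 1.11 in LPS versus control, but it is only 539 bases long and turned to -0.54 with length and level removed. In LPS+RCMNs versus control, none of the eIF2 machinery, ATF4 target, tRNA synthetase or mitochondrial relay genes passed edgeR's test, and of the mTORC1 genes 2 fell. At an unadjusted p below 0.05 there were 2, 5, 2 and 0 genes in these lists, in that order, of which DESeq2 called 1 and limma 0.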

How the data were processed

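RNA was extracted with TRIzol and messenger RNA enriched with oligo(dT) beads, per the labels' protocols. For each gene and library the authors deposited an estimated count, as a read count per the file headers, and an FPKM (fragments per kb and M reads). These are estimated counts because 77.8% of values above 0 lay over 0.001 away from a whole number. The submitters' processing notes name build mm10, and the series' design text names FastQC for read checks. No aligner, counting tool or use of strand is named in those sources, so overlapping and antisense genes cannot be told apart. Each description's library code tied a column to its sample, and 4 per-sample columns of no sample were not used. Gene IDs were matched to the RefSeq gene table of GRCm38.p6 (17468 of 17518).

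Counts were rounded and tested with edgeR 4.0.16 (R 4.3.3): filterByExpr, TMM scaling, the quasi-likelihood test over all 8 libraries in 3 groups, and Benjamini-Hochberg adjustment over 11911 genes, called below 0.05 with no minimum fold. The SE is the absolute log2 fold change over the square root of F. CPM uses the TMM-scaled library size, with factors of 0.779 and 0.803 in LPS and 1.05 to 1.13 elsewhere, and FPKM values were used to compare levels between genes. Gene length is the length implied by count and FPKM. Residual and prior degrees of freedom were 5 and 4.15, at a common biological coefficient of variation of 14.5%. Depth per library limits low genes, for which 3 counts is the floor given. The procedure was tested on simulated data.

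Alternatives were a fit on only the groups compared, a replicate block, each library left out, both libraries that stood apart left out, no filter, median-ratio size factors, DESeq2 1.42.0, limma 3.58.1 on log2(FPKM + 1) or log2(FPKM + 0.1), and a loess trend (span 0.4) on length, or on length and level, removed from each library. Leaving out control replicate 1 together with the length and level trend was added after seeing the data. Pairing of the samples by replicate number was not shown. The members and lists were chosen with earlier results of these data known. The text names all members, plus Atf3, Il1b and Il6. Of each other list it names up to 3 called genes of smallest p in LPS versus control and in LPS+RCMNs versus LPS. The genes of other lists named for control replicate 1 were those reaching a deviation of 1 in either direction, chosen after their values were seen. Of the other lists, Cbs, Fgf21, Slc43a1, Slc7a3, Rragb, Rragd and Sesn3 did not pass the filter. Lymphocyte, epithelial, and fibroblast and endothelial markers summed to at most 1.03, 0.363 and 2.60 CPM in any library.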

Additional observations from a re-analysis of the deposited data

How the results depend on the processing

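For LPS versus control, 5 genes rose and 4 fell. Leaving out 1 library at a time gave 4 to 18 higher, the 18 without control replicate 1, and 2 to 6 lower, the 2 without LPS replicate 1. Leaving out both libraries that stood apart gave 19 higher and 5 lower, and limma on FPKM values 3 higher and 10 lower with either pseudocount. Removing the trend on length and level gave 3 higher and 3 lower, or 12 higher and 3 lower without control replicate 1 as well. Without both libraries 74.9% of all genes were called, 4566 of them higher and 4299 lower. For LPS+RCMNs versus LPS, 3 rose and 9 fell. Leaving out 1 library gave 3 to 9 lower, the 3 without LPS replicate 1. A fit on only the groups compared gave 6 higher and 13 lower, and without both libraries that stood apart there were 8 higher and 14 lower. Of all genes, 60.9% were called with only the groups compared and 73.8% without both libraries. Limma on FPKM gave 5 higher and 2 lower with either pseudocount. Removing the length trend gave 2 higher and 3 lower, and removing length and level gave 3 higher and 3 lower. All genes called numbered 4618 with length and level removed, against 7063. With control replicate 1 left out as well, 7 were higher and 8 lower, where 23.7% of all genes rose and 23.3% fell. For LPS+RCMNs versus control, 1 rose and 3 fell. Leaving out 1 library gave 1 to 4 higher and 0 to 1 lower, with 4 higher without control replicate 1. Without both libraries there were 10 higher and 4 lower. A fit on only the groups compared gave 1 higher and 0 lower, and no filter gave 1 higher and 1 lower. With control replicate 1 left out and length and level removed, 4 were higher and 1 lower. All genes called were 901, with 322 to 1372 when 1 library was left out and 3017 (25.5%) without both. The scale of FPKM moved the median of all genes to -0.33 for LPS versus control, 0.27 for LPS+RCMNs versus LPS and -0.07 for LPS+RCMNs versus control on log2(FPKM + 1), so the split of limma calls is relative to that shift: 2113 of all genes were then higher and 5925 lower in LPS versus control, and 5448 higher and 2117 lower in LPS+RCMNs versus LPS.

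Of 1565 values of single genes under an alternative, 170 turned in direction, 149 of them for genes not called in the test reported nor in the alternative. Of those 149, 62 were in settings that removed a length trend, 35 without control replicate 1 or both libraries, 30 with limma on FPKM and 22 elsewhere. The other 21 involved a call. In LPS versus control, these were Trib3 without control replicate 1 (1.13, against -1.41 to 1.13 over single libraries left out) and without both libraries (1.13), Gdf15 in the same settings (1.25, against -0.53 to 1.25, and 1.25), Ddit3 without both (0.36), Eif4ebp1 with the length trend (-0.35) or length and level (-0.50) removed, and, with control replicate 1 left out and length and level removed, Eif4ebp1 (-0.11), Eif2ak3 (0.36), Cebpg (0.60) and Gpt2 (0.46). In LPS+RCMNs versus LPS they were Eif4ebp1 with the length trend (0.067) or length and level (0.23) removed, and Eif4ebp1 (0.22) and Cebpg (-0.52) with control replicate 1 left out as well. In LPS+RCMNs versus control they were Trib3 (0.54), Asns (0.21), Mthfd2 (0.42) and Sesn2 (0.66) without both libraries, and Sesn2 without control replicate 1 (0.86, against -0.92 to 0.86 over single libraries left out) and with length and level also removed (0.86). Of the values that kept direction, 1194 kept the call or its absence, 106 lost the call and 95 gained it. The cause was not tested.

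With the replicate number as a block, 4 rose and 5 fell in LPS versus control, 3 rose and 6 fell in LPS+RCMNs versus LPS, and 1 rose and 0 fell in LPS+RCMNs versus control, where 454 of all genes were called. In that setting 56.9% of all genes were called in LPS versus control and 51.9% in LPS+RCMNs versus LPS. The labels give the groups the same numbers, but deviations of same-numbered libraries correlated at -0.34 to 0.20, and not every library correlated best with its own number. Pairing by number was thus not shown. These correlations cannot decide on it, since the deviations of the 2 LPS libraries mirror each other. Groups of 2 and 3 libraries limit all calls, and genes near 1 CPM, such as Gdf15 in controls, rest on few counts.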
